A study of Mus musculus with 13 samples.

Results

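The comparison described here asked how hippocampal gene expression differed with Lin28a deletion 3 days after pilocarpine-induced status epilepticus (SE). Its members were the 6 libraries labelled as pilocarpine-treated, of 13 in the series, chosen by treatment and genotype alone. The 3 SE-WT libraries came from Nestin-Cre::Lin28a+/+ mice and the 3 SE-cKO libraries from Nestin-Cre::Lin28aloxP/loxP mice, so both groups carried the Cre transgene. Nestin-Cre acts in neural progenitors and their descendants, which include neurons and most glia of the brain but not microglia or blood cells. At 6 weeks of age, males were given 260 mg/kg pilocarpine and females 280 mg/kg, after scopolamine methyl nitrate and terbutaline, and diazepam ended the seizures. Sex is not labelled per library. The RNA was taken from whole hippocampi, and 3 sham-WT and 4 sham-cKO libraries of saline-treated mice served as the background. All genes other than neurotransmitter receptors were open to description, with and without SE-WT replicate 2.

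LIN28A is an RNA-binding protein of stem cells and progenitors. It binds precursors of the let-7 microRNAs and blocks their maturation, and let-7 in turn lowers the output of messenger RNAs that carry sites for its seed, the stretch of the microRNA that pairs with a target. Within days of SE the hippocampus loses neurons, its astrocytes and microglia become reactive, and cells divide in the dentate gyrus and around lesions. The microRNAs themselves were not analysed here. The mature let-7 sequences below, from RefSeq (GRCm38.p6), are shown because they are the molecules that LIN28A controls. Capitals mark the seed, bases 2 to 8, which all 6 share.
mmu-let-7a-5p: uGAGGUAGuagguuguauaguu
mmu-let-7c-5p: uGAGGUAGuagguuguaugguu
mmu-let-7d-5p: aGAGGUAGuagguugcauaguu
mmu-let-7e-5p: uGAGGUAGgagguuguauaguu
mmu-let-7g-5p: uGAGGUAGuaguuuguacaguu
mmu-let-7i-5p: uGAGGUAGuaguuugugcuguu

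The 6 SE libraries held 62277035 to 82476468 counts. Lin28a itself had 3 counts in SE-WT replicate 3 and 0 in the other 12 libraries, where 0 counts allow up to 0.0506 CPM (counts scaled to a common library size by TMM) in the library with the highest limit, so its level did not check the genotype labels. Prox1, a transcription factor of granule neurons, was at 17.4 to 98.0 CPM in the SE libraries. Its presence alone cannot check the labelled tissue. Among the sham-cKO libraries it was highest in replicate 2, which was high in thalamic genes, at 114 CPM against 47.2 to 85.3 CPM. Uneven material was seen in single libraries. SE-WT replicate 2 was high in genes of striatal neurons and SE-WT replicate 3 in genes of thalamic neurons, and both lie outside the hippocampus. Xist, which is expressed from the inactive X chromosome of females, was high in 1 SE-WT and 2 SE-cKO libraries. Mitochondrial ribosomal RNA took 4.83% of counts in SE-WT replicate 3 and 3.92% in SE-cKO replicate 3, against at most 1.66% in the other SE libraries. In RNA of whole tissue, fewer cells of a type and less RNA per cell cannot be told apart.

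No gene passed an adjusted p of 0.05 between SE-cKO and SE-WT in edgeR's quasi-likelihood test, among 21126 genes tested. At an unadjusted p under 0.05, 1144 genes (5.42%) were higher and 902 (4.27%) were lower in SE-cKO. Without SE-cKO replicate 2 these counts were 703 and 510. DESeq2 called 307 genes higher (1.81%) and 228 lower (1.34%) of the 16972 to which it gave an adjusted p, and limma voom with quality weights called 0. The edgeR fit of all 13 libraries called 107 higher (0.474%) and 55 lower (0.243%) of 22596. By point estimate alone, 50.1% of genes were higher and 49.9% lower, which is the background for the counts of list members by direction below. The 5.42% and 4.27% above are the background for list members at an unadjusted p under 0.05. All values named below therefore describe these 6 libraries, and no single gene is called from them in edgeR.

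**Figure D1:**
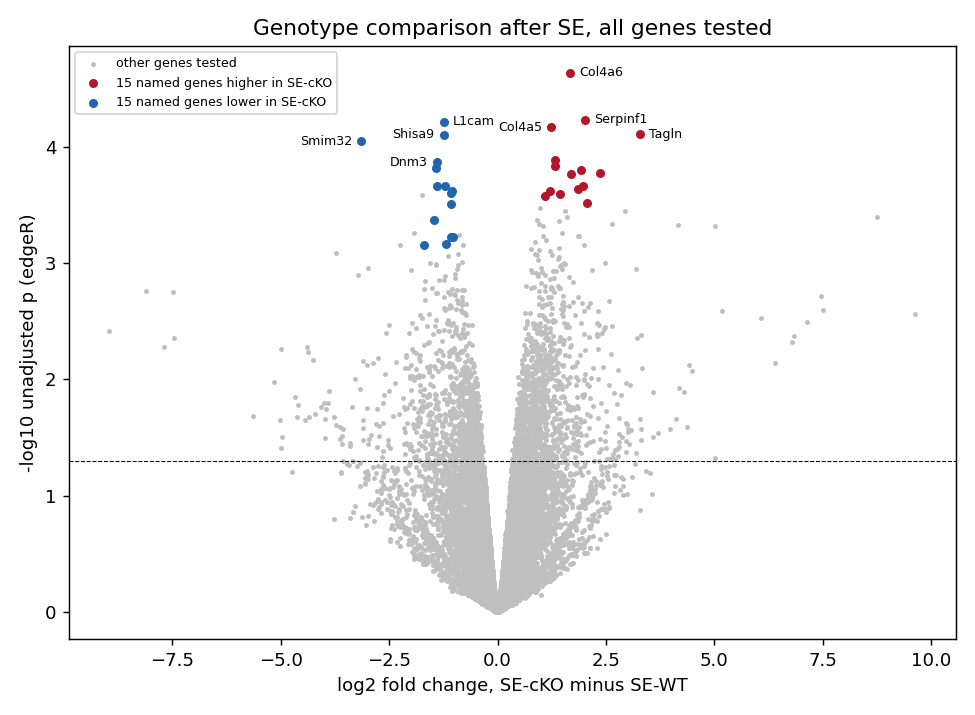
Each point is 1 of the 21126 genes tested, placed by its log2 fold change between SE-cKO and SE-WT (horizontal axis) and by the negative log10 of its unadjusted p (vertical axis). The dashed line marks the unadjusted threshold, and the coloured points are the 15 higher and 15 lower genes named in the text, among which Col4a6 has the smallest p.

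Groups that did not overlap were counted next. All 3 SE-cKO libraries lay above all 3 SE-WT libraries for 1965 genes (9.3%) and below them for 1199 (5.68%). With a fold change of at least 2 as well, 660 genes (3.12%) were higher and 376 (1.78%) lower. Some of these also had a group mean of 1 CPM or more and an unadjusted p under 0.05 both with and without SE-WT replicate 2. After predicted genes and receptors were left out there were 311 higher and 142 lower ones, and the 15 with the smallest p on each side are named here. Their values with all 6 libraries, and without SE-WT replicate 2, chose them and are a description.

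Among the higher genes were 2 basement membrane collagens, of which Col4a6 had the smallest p of the 15. Col4a6 and Col4a5 encode the alpha 6 and alpha 5 chains of type IV collagen, the network-forming collagen of basement membranes. Col4a6 was at 8.81, 9.09 and 8.24 CPM in the 3 SE-WT libraries and at 25.2, 32.3 and 27.6 CPM in the SE-cKO libraries. The groups were well apart, and each varied little. The log2 fold change was 1.67 with a standard error of 0.18, and it was 1.70 without SE-WT replicate 2. Its adjusted p was 0.236 in edgeR and 9.67e-12 in DESeq2. Col4a5 was at 16.7, 15.8 and 16.2 CPM in SE-WT and at 40.8, 35.7 and 40.8 CPM in SE-cKO, or 2.35-fold more (log2 fold change 1.23, standard error 0.16). Its adjusted p was 0.236 in edgeR and 3.91e-09 in DESeq2. In the 7 sham libraries Col4a6 ran from 2.46 to 4.84 CPM and Col4a5 from 8.36 to 11.9 CPM, below every SE library for both genes.

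Both genes lie head to head on chromosome X, with RefSeq start sites 1343 bases apart, and their windows are shown because both members of this pair were among the 15. The 250 bases before each start site are at chrX:141474077-141474326 on the minus strand for Col4a6 and at chrX:141475169-141475418 on the plus strand for Col4a5 (GRCm38.p6, the build of mm10). Capitals mark the GC box, GGGCGG on either strand, which occurs once in each window.
Col4a6: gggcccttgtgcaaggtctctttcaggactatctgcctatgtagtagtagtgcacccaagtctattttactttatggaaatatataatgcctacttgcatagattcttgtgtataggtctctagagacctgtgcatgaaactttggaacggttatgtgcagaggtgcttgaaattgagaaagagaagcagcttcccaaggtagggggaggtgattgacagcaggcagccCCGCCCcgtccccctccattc
Col4a5: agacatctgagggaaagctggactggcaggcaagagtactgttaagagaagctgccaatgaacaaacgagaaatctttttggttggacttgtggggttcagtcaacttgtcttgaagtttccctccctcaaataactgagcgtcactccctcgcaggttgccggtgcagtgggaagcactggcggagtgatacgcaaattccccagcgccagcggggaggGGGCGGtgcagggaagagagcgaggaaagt
A GC box was in 7 of the 10 higher genes with a RefSeq window and in 7 of 12 lower genes, against 54.9% of 15005 tested genes with one. The STAT motif TTCNNNGAA was in 0 of 10 and 0 of 12 (7.34% of all), the AP-1 motif TGANTCA in 0 of 10 and 1 of 12 (6.14%), and the TATA box TATAAA in 2 of 10 and 2 of 12 (9.62%), each searched on both strands. Neither window shown held a match to the other motifs.

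Fibrillar and other matrix genes were higher as well. Col12a1, a collagen that coats fibrils, was at 37.6, 34.7 and 27.9 CPM in SE-WT and at 95.7, 189 and 241 CPM in SE-cKO (log2 fold change 2.36, standard error 0.34). Its SE-cKO libraries spread widely, and the lowest was still over 2-fold above the highest SE-WT library. Col5a2 and Col11a1, fibrillar collagens that set fibril width, had log2 fold changes of 1.34 and 1.86. Fbln2, a fibulin of elastic fibres and basement membranes, was at 11.2, 6.02 and 12.4 CPM in SE-WT and at 36.3, 42.2 and 36.7 CPM in SE-cKO, a log2 fold change of 1.93 (standard error 0.28). Of 22 collagen genes tested, 18 had a higher and 4 a lower level in SE-cKO, 11 with an unadjusted p under 0.05 on the higher and 1 on the lower side, with a median log2 fold change of 0.87 and of 0.64 without SE-WT replicate 2. The median over all genes tested was 0.00 to 2 decimals. Col16a1, another fibril-associated collagen, had a log2 fold change of 1.09.

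Genes that remodel matrix followed. Of 32 tested, 30 were at a higher level in SE-cKO, 16 of them with an unadjusted p under 0.05, and the median log2 fold change was 0.75. Tnc, which encodes the injury-related matrix glycoprotein tenascin C, was at 60.2, 42.9 and 49.6 CPM in SE-WT and at 150, 280 and 535 CPM in SE-cKO (log2 fold change 2.64, standard error 0.45). SE-cKO replicate 3 was the highest, and no SE-cKO library fell within the SE-WT range. Tgfbi, a matrix adhesion protein, was at 1.85 and Serpinh1, the collagen chaperone HSP47, at 0.95. Among 19 genes of perineuronal nets and proteoglycans 12 were higher and 7 lower, with a median of 0.21. Acan, the core proteoglycan of perineuronal nets, was at 8.51, 11.2 and 7.72 CPM in SE-WT and at 13.6, 33.0 and 103 CPM in SE-cKO, so that its log2 fold change of 2.42 (standard error 0.68) rested mainly on SE-cKO replicates 2 and 3. Bgn, a small leucine-rich proteoglycan, was at 8.85, 4.35 and 9.47 CPM in SE-WT and at 21.3, 32.02 and 32.2 CPM in SE-cKO. Has2, a hyaluronan synthase, overlapped between the groups, at 2.83 to 9.09 and 8.84 to 36.6 CPM.

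Genes of the serpin family and a related protease trap formed another set of the 15. Serpinf1, which encodes the secreted factor PEDF, was at 13.7, 8.88 and 15.8 CPM in SE-WT and at 44.2, 59.7 and 55.6 CPM in SE-cKO, 4.06-fold more (log2 fold change 2.02, standard error 0.25, with an adjusted p of 0.236 in edgeR and 3.91e-09 in DESeq2). SE-WT lay near the sham range of 6.88 to 13.2 CPM, and SE-cKO far above it. Serpinf2, alpha 2-antiplasmin, is a neighbour of Serpinf1 on chromosome 11 and was at 5.62, 3.58 and 5.58 CPM in SE-WT and at 15.3, 17.9 and 29.6 CPM in SE-cKO (log2 fold change 2.06). Serpina3n, a serine protease inhibitor of reactive astrocytes, had a log2 fold change of 1.32, and A2m, the broad protease trap alpha 2-macroglobulin, of 1.21.

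Other genes of the 15 were Tagln, Cav1, Igfbp7, Slc43a3 and Pxdc1. Tagln, the actin-binding protein transgelin of smooth muscle and stressed cells, had the highest fold change of the 15. It was at 20.7, 7.28 and 7.76 CPM in SE-WT and at 116, 135 and 102 CPM in SE-cKO, 9.67-fold higher (log2 fold change 3.27, standard error 0.43). Cav1, the coat protein of caveolae in endothelial and other cells, was at 38.7, 17.9 and 34.5 CPM in SE-WT and at 99.2, 129 and 135 CPM in SE-cKO (log2 fold change 1.97). Igfbp7, a secreted protein of vessels, was 2.73-fold higher, Slc43a3, a nucleobase transporter, 3.22-fold higher, and Pxdc1 2.13-fold higher. Pxdc1 varied little within a group, at 8.80, 9.44 and 8.90 CPM against 19.9, 20.2 and 19.1 CPM.

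**Figure D2:**
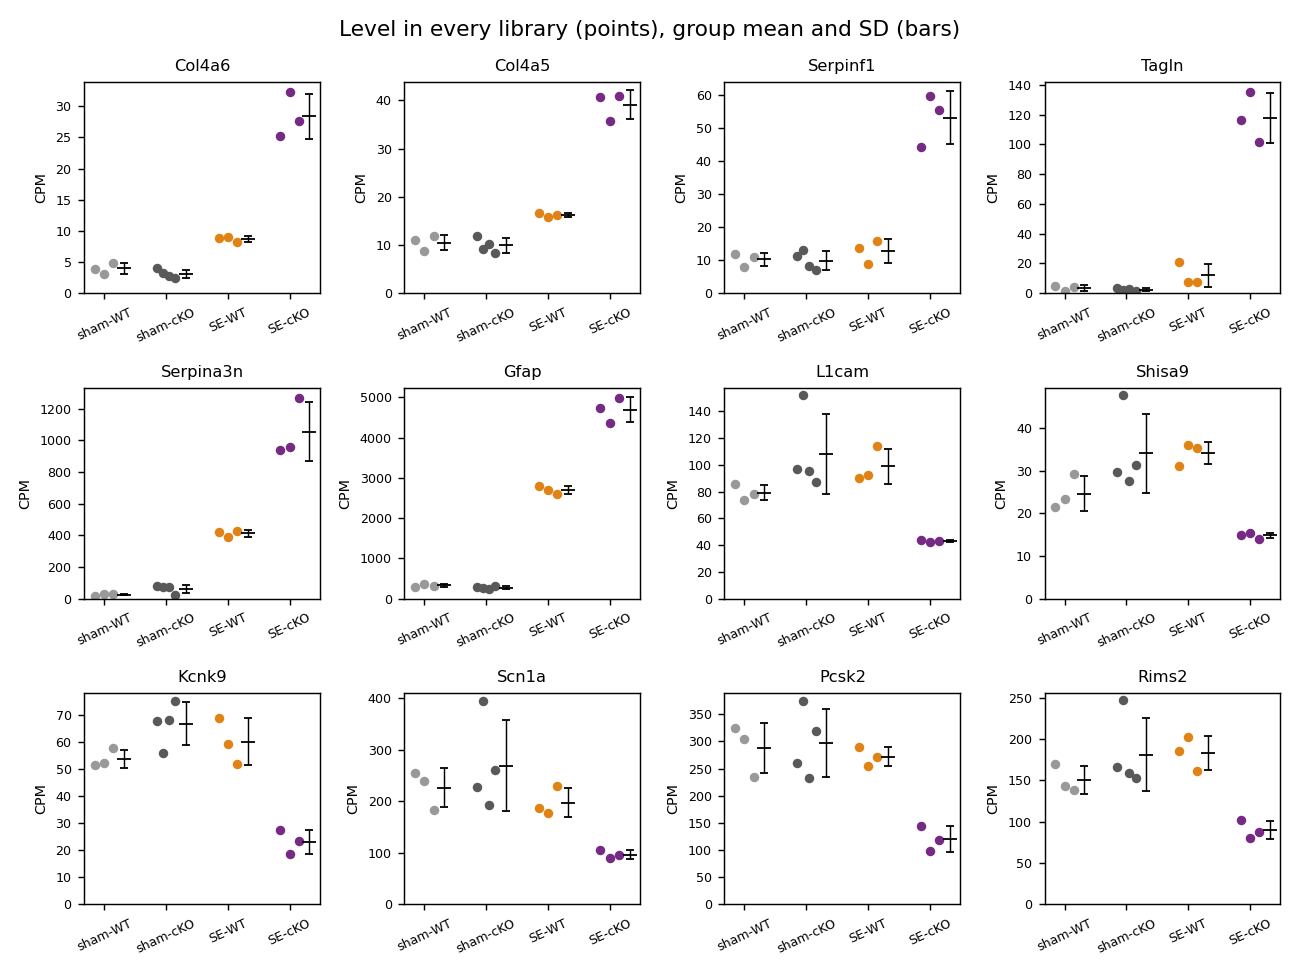
CPM of 12 genes in every library (points) with each group's mean and SD (bars), on linear axes that start at 0. For the top row and for Serpina3n and Gfap, SE-cKO stands above SE-WT, and for L1cam, Shisa9, Kcnk9, Scn1a, Pcsk2 and Rims2, SE-WT is near the sham libraries while SE-cKO is below them.

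Set beside the sham libraries, the 15 higher and the 15 lower named genes had different shapes. For 12 of the 15 higher genes the SE-WT mean was already above the highest of the 7 sham libraries, and for all 15 each SE-cKO library was above it. For 14 of the 15 lower genes the SE-WT mean was within the sham range, and for 13 each SE-cKO library was below the lowest sham library. For Smim32, L1cam, Shisa9, Dnm3, Rims2 and Rgs6 the top of that range was sham-cKO replicate 2, which was high in thalamic genes. The SE-WT mean of each of these genes was above all other sham libraries. For Smim32 it was 8.59 CPM, against 3.71 CPM in sham-WT replicate 1, the next highest sham library. Mgat4c was the exception in SE-WT, with a mean below the sham range, and Rgs6 and Cdh7 had 2 of 3 SE-cKO libraries below it. These counts share the SE libraries with the choice of the genes. They were not made over all genes tested, so no background share stands beside them.

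Genes of reactive astrocytes were at higher levels in SE-cKO throughout. All 24 tested were higher, 18 of them with an unadjusted p under 0.05, 18 without overlap between the groups and 13 called by DESeq2. The median log2 fold change was 1.03, and it ran from 0.76 to 1.31 over 17 alternatives. As a level, the median of log2 CPM above the sham mean was 3.22, 2.55 and 2.84 in the SE-WT libraries and 3.98, 4.09 and 4.42 in the SE-cKO libraries. Gfap, the astrocyte filament, was at 2791, 2694 and 2600.4 CPM in SE-WT and at 4732, 4359 and 4970.4 CPM in SE-cKO, against 229 to 358 CPM in sham (log2 fold change 0.76, standard error 0.16). Genes of astrocyte homeostasis did not share this: 7 of 20 were higher and 13 lower, with a median of -0.23.

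The cytoskeletal genes that accompany reactive glia had the same direction. Of 30 genes for actin-binding proteins, annexins and S100 proteins, 28 were higher, 16 with an unadjusted p under 0.05, with a median of 0.76. Tpm4, a tropomyosin, was at 86.8, 65.1 and 65.6 CPM in SE-WT and at 143, 147 and 145 CPM in SE-cKO (log2 fold change 0.97, standard error 0.17). Flna and Flnc, actin cross-linking filamins, had log2 fold changes of 1.21 and 1.44, and Anxa2, a membrane-binding annexin, of 0.97.

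Signalling and stress genes showed smaller differences. Of 27 genes of JAK-STAT3 and NF-kB signalling, 23 were higher, 13 with an unadjusted p under 0.05 and 2 called by DESeq2, with a median of 0.54. Cebpd, a transcription factor induced by cytokines, was at 22.7, 18.5 and 29.0 CPM in SE-WT and at 65.5, 49.6 and 76.1 CPM in SE-cKO (log2 fold change 1.41, standard error 0.24), with no overlap. Il4ra and Osmr, receptor chains for interleukin 4 and oncostatin M, had log2 fold changes of 1.36 and 0.96, and Nfkbia, the NF-kB inhibitor, of 0.93. Of 24 genes of heat shock and the unfolded protein response, 22 were higher (median 0.54), among them the small heat shock genes Hspb1, at 2.31, and Hspb8, at 0.78, and the endoplasmic reticulum gene Sdf2l1, at 0.91. Trib3, a stress-induced pseudokinase, was low throughout, at 0.226 to 0.296 and 0.549 to 1.87 CPM. All 23 genes of the p53 response and apoptosis were higher with a median of 0.36. Of them 4 had an unadjusted p under 0.05, against 5.42% of all genes on the higher side. Pmaip1, the death factor NOXA, overlapped between the groups. Among 22 genes of oxidative stress, metallothioneins and iron, 16 were higher and 6 lower, with a median of 0.17. Mt1, a metallothionein, was at 219, 235 and 279 CPM against 497, 388 and 576 CPM, and Hmox1, haem oxygenase 1, had a log2 fold change of 1.02.

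Microglial and immune genes were higher with more overlap. Of 18 homeostatic microglia genes 15 were higher (median 0.46), and of 24 activated microglia and macrophage genes 21 were higher (median 0.65), with 8 and 10 at an unadjusted p under 0.05. Itgam, the integrin CD11b of microglia, was at 110, 83.6 and 93.9 CPM in SE-WT and at 162, 179 and 169 CPM in SE-cKO (log2 fold change 0.79, standard error 0.16). Aif1, which encodes IBA1, overlapped, at 13.8 to 29.0 and 17.0 to 45.3 CPM. Of 17 complement genes 15 were higher (median 0.63), and C3, the central complement factor, was at 15.3, 10.1 and 9.07 CPM against 50.7, 56.6 and 20.0 CPM. C5ar1, a receptor for C5a, and Serping1, the C1 inhibitor, had log2 fold changes of 1.52 and 1.23. All 29 genes of lysosomes and phagocytosis were higher (median 0.47), 8 with an unadjusted p under 0.05, Fcer1g, the Fc receptor gamma chain, among them at 0.76.

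Cytokine, antigen presentation and leukocyte genes were sparser. Of 25 chemokines and cytokines tested, 20 were higher (median 0.56), and 3 had an unadjusted p under 0.05 on that side, against 5.42% of all genes. Those were Csf1, the growth factor of microglia, at 0.99, Lif, at 1.55, and Tnf, at 1.97. Tnf was at 0.172 to 1.06 CPM in SE-WT and 1.94 to 2.89 CPM in SE-cKO. Il34, a neuronal ligand of the same receptor as Csf1, went the other way, at 23.7, 17.6 and 17.2 CPM in SE-WT and 14.0, 8.14 and 7.68 CPM in SE-cKO (log2 fold change -1.01). All 10 genes of MHC class II were higher (median 1.18). Their regulator Ciita did not overlap, at 0.505 to 1.48 and 2.25 to 4.10 CPM, and H2-Ab1, a class II chain, did. All 22 interferon response genes were higher by a median of 0.36, with 1 at an unadjusted p under 0.05, near the 5.42% of all genes. The median of this list was -0.06 in the fit that gave the lowest. Only 9 of 18 leukocyte markers passed the filter on low counts, 8 of them higher. S100a8, a neutrophil gene, was at 0.0964 to 0.517 CPM in SE-WT and at 0.689 to 3.30 CPM in SE-cKO, and Ptprc, the pan-leukocyte gene CD45 that microglia also express, at 18.8 to 49.0 and 49.2 to 93.3 CPM.

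Genes of cell division were also higher in SE-cKO, in 29 of 30 tested, 20 with an unadjusted p under 0.05 and 3 called by DESeq2. The median log2 fold change was 0.88 and 0.96 without SE-WT replicate 2. Mki67, which encodes Ki67 of cycling cells, was at 55.5, 47.3 and 42.6 CPM in SE-WT and at 91.7, 196 and 69.7 CPM in SE-cKO (log2 fold change 1.26, standard error 0.37). SE-cKO replicate 2 was the highest and the groups did not overlap, while the levels of the whole list did. Progenitor and newborn neuron genes showed no common direction, 10 of 24 being higher and 14 lower with a median of -0.15. Nes, the progenitor filament nestin that reactive astrocytes also express, was at 36.9, 22.8 and 50.9 CPM against 60.2, 102 and 90.7 CPM. Dcx, a microtubule protein of neuroblasts, was at 28.4, 30.8 and 12.8 CPM against 14.5, 17.4 and 12.5 CPM and overlapped.

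Vascular genes were partly higher. Of 24 endothelial genes 19 were higher (median 0.57), of 17 smooth muscle and pericyte genes 13 (median 0.45), and of 18 fibroblast and meningeal genes 15 (median 0.41), with 6, 6 and 3 at an unadjusted p under 0.05. Icam1, the leukocyte adhesion molecule, was at 8.40, 5.67 and 7.21 CPM in SE-WT and at 17.7, 18.9 and 14.0 CPM in SE-cKO (log2 fold change 1.21, standard error 0.23). Sele, the endothelial selectin induced by cytokines, was at 0.0986 to 0.645 CPM and 1.92 to 4.48 CPM. Myl9, a myosin light chain of smooth muscle, had a log2 fold change of 1.64, Col3a1, a fibroblast collagen, of 1.498, and Pecam1, the endothelial gene CD31, which overlapped between groups, of 0.67. Cspg4, the proteoglycan NG2 of pericytes and oligodendrocyte precursors, was at 29.9, 22.1 and 33.9 CPM against 57.5, 54.7 and 55.1 CPM. The other members of the 18 oligodendrocyte precursor genes were mostly higher too, 15 in all (median 0.33), whereas 12 of 19 genes of myelin were lower (median -0.21).

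**Figure D3:**
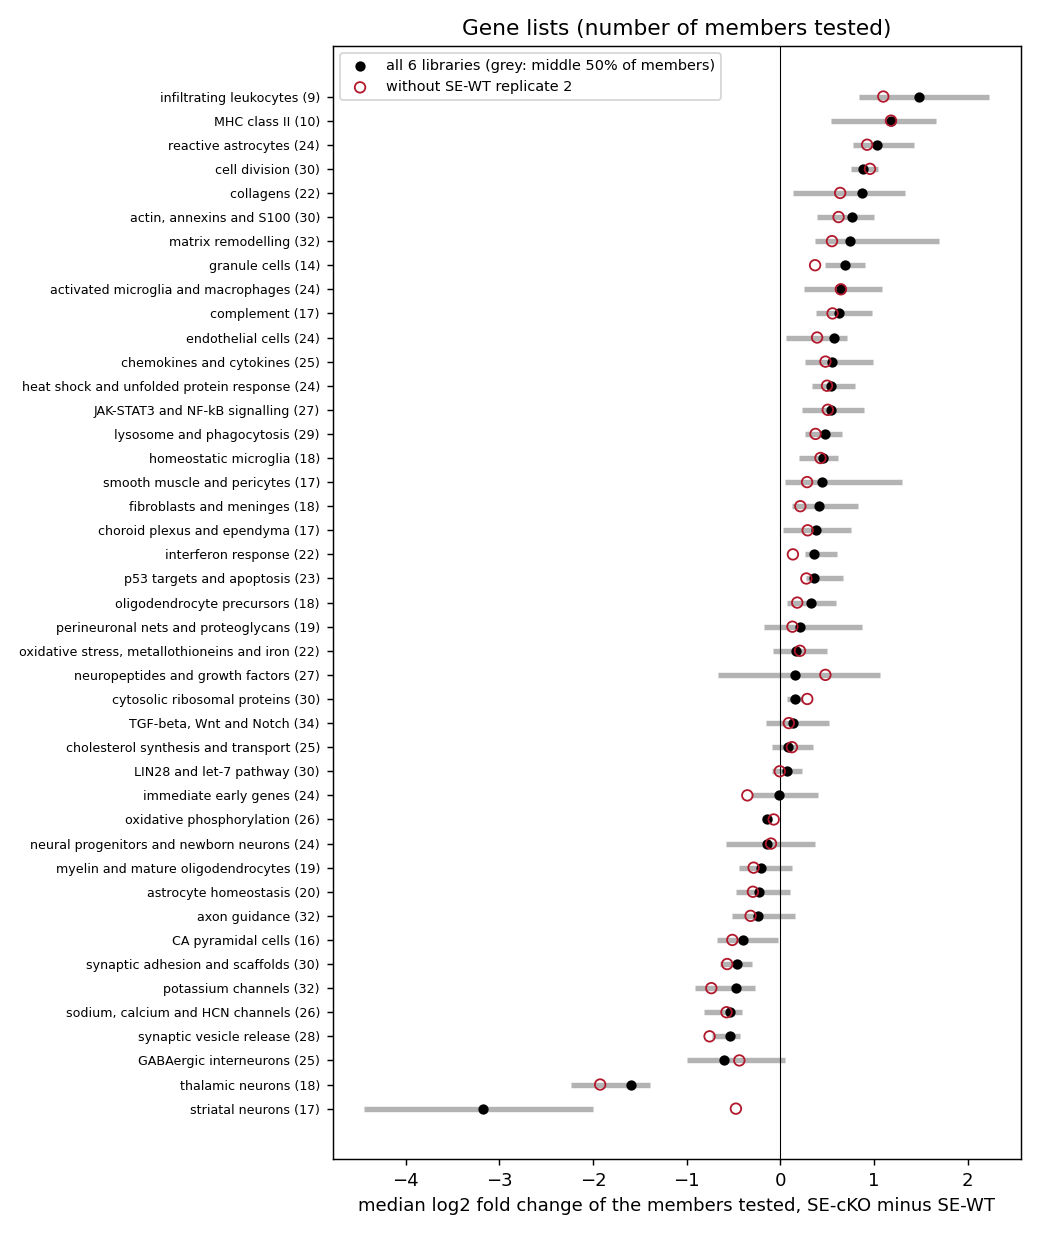
Median log2 fold change between SE-cKO and SE-WT of the members tested of each gene list, with the middle 50% of members in grey, the number tested in parentheses and the median without SE-WT replicate 2 as open circles. Reactive astrocyte genes lie at 1.03 and synaptic vesicle genes at -0.53, and the striatal list moves from -3.18 to -0.47 when that library is left out.

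The lower genes are described next. L1cam, an adhesion molecule of axons, was at 90.0, 92.8 and 114 CPM in SE-WT and at 43.9, 42.5 and 43.2 CPM in SE-cKO. The log2 fold change was -1.23 with a standard error of 0.16 and -1.27 without SE-WT replicate 2. Its adjusted p was 0.236 in edgeR and 8.07e-09 in DESeq2. Shisa9, an auxiliary protein of synapses, was at 31.1, 36.0 and 35.4 CPM against 14.9, 15.4 and 14.1 CPM (log2 fold change -1.24), and its relative Shisa7 was at 32.3, 38.8 and 27.6 CPM against 15.6, 16.1 and 16.7 CPM. Both genes had SE-cKO libraries within a narrow span. Smim32, a small membrane protein gene, had the lowest fold change of the 15 at -3.14, from 4.80, 12.7 and 8.23 CPM to 1.08, 0.880 and 1.05 CPM.

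Of the 15 lower genes, Kcnk9, Scn1a and Rims2 belong to the channel and vesicle release lists. Kcnk9, the leak potassium channel TASK3, was at 69.1, 59.5 and 51.8 CPM in SE-WT and at 27.4, 18.4 and 23.5 CPM in SE-cKO (log2 fold change -1.42, standard error 0.21). Scn1a, the sodium channel Nav1.1, was at 186, 176 and 229 CPM against 105, 88.7 and 95.2 CPM (log2 fold change -1.07). Atp2b2, a plasma membrane calcium pump, was at 49.3% and Rims2, an organiser of the release zone, at 47.8% of SE-WT by their fold changes. Dnm3, a neuronal dynamin, was at 122, 183 and 139 CPM against 61.8, 53.3 and 58.7 CPM. Pcsk2, the prohormone convertase of dense-core granules, was at 291, 255 and 272 CPM against 145, 97.4 and 118 CPM, and Rgs6, a regulator of G protein signalling, at 36.5% of SE-WT. Esrrg, an orphan nuclear receptor of neurons with high energy use, had a log2 fold change of -1.40, Cdh7, a cadherin, of -1.69, Mgat4c, a glycosyltransferase gene, of -1.19, and Dzank1 of -1.04.

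Most members of the lists of neuronal function were lower. Of 28 synaptic vesicle release genes 27 were lower, 10 with an unadjusted p under 0.05, and the median was -0.53 (-0.76 without SE-WT replicate 2). All 30 genes of synaptic adhesion and scaffolds were lower with a median of -0.46, 8 with an unadjusted p under 0.05. Of 32 potassium channel genes 27 were lower (median -0.47, 12 with an unadjusted p under 0.05), and of 26 sodium, calcium and HCN channel genes 24 (median -0.53, 14 with an unadjusted p under 0.05). The levels of both channel lists did not overlap between the groups. Potassium channels were at -0.02, -0.24 and -0.02 on the log2 scale against the sham mean in SE-WT and at -0.66, -0.76 and -0.36 in SE-cKO. Of 32 axon guidance genes 23 were lower, with a median of -0.23.

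Several members spanned a wide range among the SE-WT libraries. Unc13c, a vesicle priming gene, was at 30.2, 112 and 68.4 CPM in SE-WT against 24.2, 10.7 and 18.1 CPM in SE-cKO, and Scn4b, a sodium channel subunit abundant in striatum, at 15.8, 363 and 39.1 CPM against 10.1, 4.18 and 8.59 CPM. SE-WT replicate 2 was the highest in both. Others were tighter: Kcnq3, a subunit of the M-current channel, was at 184, 188 and 205 CPM against 97.7, 121 and 125 CPM, and Sv2a, a vesicle protein, at 294, 237 and 291 CPM against 187, 158 and 190 CPM. Kcnq5 and Kcnt1, further potassium channels, had log2 fold changes of -1.23 and -1.35, and Cacna1i, a T-type calcium channel, of -1.10. Syt2, a fast calcium sensor of release, was at 30.6, 27.8 and 41.8 CPM against 22.1, 14.5 and 15.6 CPM. Cntn4, Cntnap2 and Nlgn3, adhesion molecules of axons and synapses, had log2 fold changes of -0.96, -1.14 and -0.48, and Cntnap1, of the node of Ranvier, one of -0.68 with a slight overlap. Among guidance genes, the ligand Efna5 was at -1.52 and the receptor Robo1 at -1.04, while Sema3d, at 0.78, and the semaphorin receptor Nrp2, at 0.56, were higher.

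Lists for neuron types did not all go the same way. Of 25 interneuron genes 18 were lower (median -0.60), with Erbb4, a neuregulin receptor of interneurons, at -0.79. Lamp5, of neurogliaform cells, was at 40.3, 33.1 and 8.34 CPM against 5.86, 7.82 and 8.91 CPM and overlapped at SE-WT replicate 3. The neuropeptide Npy was higher, at 58.9, 42.0 and 30.8 CPM against 64.1, 97.8 and 112 CPM. Granule cell genes were higher in 11 of 14, with a median of 0.69, and 0.37 without SE-WT replicate 2. Their levels against the sham mean were -1.47, -2.01 and -0.83 in SE-WT and -0.45, -0.48 and -0.53 in SE-cKO, so every SE library was below sham. Of 16 genes of CA pyramidal cells 12 were lower, with a median of -0.40 and 1 at an unadjusted p under 0.05, against 4.27% of all genes. Rbfox3, which encodes the neuronal protein NeuN, was at 71.9, 56.3 and 97.0 CPM against 38.5, 43.7 and 88.4 CPM and overlapped.

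Genes from outside the hippocampus were lower as well. All 17 striatal genes tested were lower, and their level against the sham mean was 0.03, 4.23 and 0.25 in the 3 SE-WT libraries and -0.04, -0.79 and -0.66 in SE-cKO. The median log2 fold change of the list was -3.18 with all libraries and -0.47 without SE-WT replicate 2. The same library had the lowest SE-WT level of the synaptic vesicle list, at -0.55 against 0.03 and 0.12, and the vesicle median was further below 0 without it. All 18 thalamic genes tested were lower too, with levels of -0.61, -0.50 and 2.62 in SE-WT and -0.56, -0.27 and 0.13 in SE-cKO, and their median of -1.59 became 0.24 without SE-WT replicate 3. Rora, a nuclear receptor of thalamic neurons, was at 460 CPM in SE-WT replicate 3 and at 66.4 to 127 CPM in the other 5. For both channel lists and both synaptic lists, the medians stayed below 0 in all 17 alternatives, those with striatal and thalamic levels as covariates included. The striatal level did not overlap between the SE groups and varied mostly through SE-WT replicate 2, so such a fit can tell it apart from genotype only in part. The part of striatal or thalamic material in these medians was not tested. Choroid plexus genes ranged from -1.77 to 1.78 against the sham mean and overlapped widely, with a median log2 fold change of 0.38.

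The LIN28 and let-7 pathway had no common direction. Of 30 tested genes, 21 were higher and 9 lower with a median of 0.08, and 1 on each side had an unadjusted p under 0.05, against 5.42% and 4.27% of all genes. Cdk6, a cyclin-dependent kinase and known let-7 target, was at 10.02, 6.22 and 8.72 CPM in SE-WT and at 13.2, 17.3 and 16.8 CPM in SE-cKO (log2 fold change 0.89, standard error 0.24). Lin28b, the paralog of Lin28a, was at 5.24, 13.7 and 6.84 CPM against 3.39, 1.36 and 2.88 CPM. Its log2 fold change was -1.79 and, without SE-WT replicate 2, -1.28.

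Other lists were close to 0. Cholesterol synthesis and transport had a median of 0.08, though Ch25h, the enzyme that makes 25-hydroxycholesterol, was at 8.07, 5.20 and 3.99 CPM against 25.3, 21.2 and 12.3 CPM, and Cyp46a1, the neuronal cholesterol hydroxylase, had a log2 fold change of -0.94. Oxidative phosphorylation was at -0.15, with 26 of 26 genes lower, and cytosolic ribosomal proteins at 0.16, with 29 of 30 higher, but no member of either list had an unadjusted p under 0.05. A shared direction of nearly all members thus also occurred in lists without such a member. Immediate early genes were at -0.02 and had the opposite sign in 7 of 17 alternatives. Atf3 stood apart among them, a factor of injured neurons at 8.59, 6.002 and 10.1 CPM against 12.1, 59.7 and 67.9 CPM. Genes of TGF-beta, Wnt and Notch signalling had a median of 0.14, with Notch1 at 0.52 and the secreted Wnt modulator Sfrp2 at -1.92. Neuropeptides and growth factors were at 0.16, with Fgf2, a growth factor of glia, at 1.07 and Pdyn, prodynorphin, at -2.59, where SE-WT replicate 2 held 59.1 CPM against 14.3 and 7.84 CPM.

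Without SE-WT replicate 2, edgeR again called 0 genes, of 21889 tested, and 805 (3.68%) were higher and 888 (4.06%) lower at an unadjusted p under 0.05. It was the Xist-high library of SE-WT. Without it SE-WT held only Xist-low libraries against 2 Xist-high and 1 Xist-low SE-cKO libraries, and the part of sex in the fit without it was not tested. Of the 1144 higher genes with all 6 libraries, 660 (57.7%) were also under 0.05 and higher without it, and of the 902 lower genes 537 (59.5%) were also under 0.05 and lower. A further 109 higher and 340 lower genes were under 0.05 only without it. Among the genes under 0.05 with all 6 libraries, 1 had the opposite direction without it. When the library was left out, the log2 fold change was higher by at least 1 for 355 genes and lower by as much for 0. Leaving out 1 of 3 libraries can raise a group mean by at most 1.5-fold but can lower it without limit, so such a drop cannot occur in the means.

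Genes whose log2 fold change moved most without that library included several of other brain regions. Gpr6, an orphan receptor gene of striatal neurons, was at 22.3 CPM in SE-WT replicate 2 and at 0.258 and 0.554 CPM in the other SE-WT libraries, and its log2 fold change of -5.64 became -1.36. Slc5a7, the choline transporter of cholinergic neurons, was at 59.3 CPM against 1.14 and 4.24 CPM. Ppp1r1b, the phosphoprotein DARPP-32, is named from the striatal list and was at 205 CPM against 27.2 and 18.8 CPM. Avp, the hypothalamic hormone vasopressin, was at 56.2 CPM against 0.193 and 0.370 CPM, and its direction was opposite without the library, at 1.09. On the higher side Saa1, an acute phase gene, was at 0.867 to 1.24 CPM in SE-cKO and at 0, 0.0826 and 0 CPM in SE-WT, and Gal, the neuropeptide galanin, was at 3.16, 10.8 and 28.1 CPM against 0.967, 3.76 and 1.64 CPM. Krt6a, a keratin gene, was above 1 CPM in SE-cKO replicate 3 only, at 11.6 CPM.

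**Figure D4:**
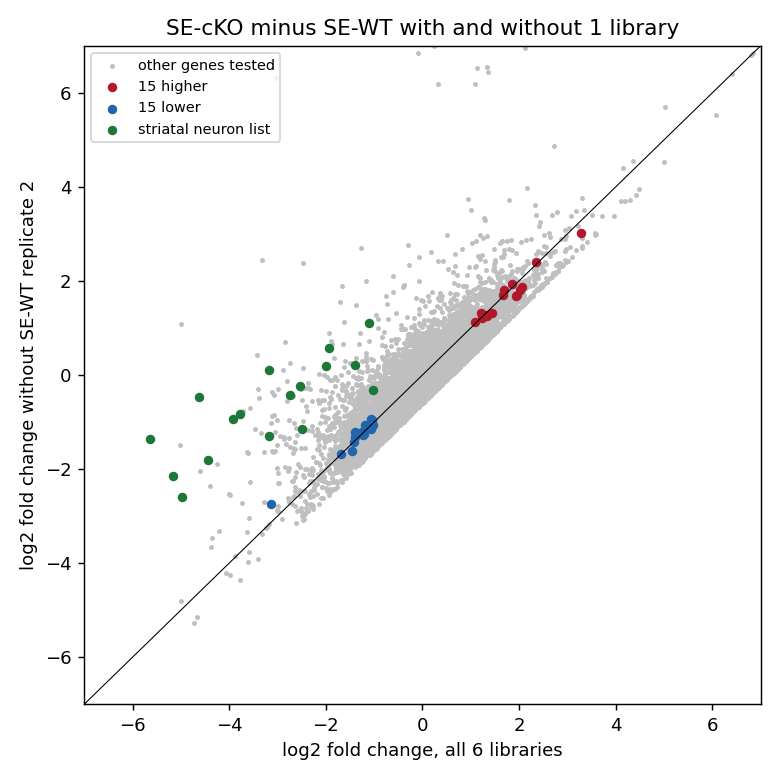
Log2 fold change between SE-cKO and SE-WT with all 6 libraries (horizontal) and without SE-WT replicate 2 (vertical), 1 point per gene, with the line of equal values. The 15 higher and 15 lower named genes lie near the line, and striatal genes lie above it, with 24 genes outside the axes.

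The same genotype comparison without seizures used other mice. Of 20785 genes tested between sham-cKO and sham-WT, edgeR called 0, and 792 (3.81%) were higher and 360 (1.73%) lower at an unadjusted p under 0.05. Among 19990 genes tested in both comparisons, 178 were under 0.05 in both, 15 of them in the same direction and 163 in opposite directions. Over all these genes 40.3% had the same direction in both. Xist was at 2.96, 176 and 257 CPM in sham-WT and at 0.304, 0.311, 304 and 1.88 CPM in sham-cKO. After SE it was at 1.31, 406 and 0.0616 CPM in SE-WT and at 0, 511 and 335 CPM in SE-cKO. Xist-high libraries were thus uneven between the genotypes in opposite ways in sham and after SE. The part of sex in these directions was not tested. Leaving out sham-cKO replicate 2, which was high in thalamic genes, SE-WT replicate 2, SE-WT replicate 3, or the first and last of these together, which was chosen after the data were seen, gave 11 to 17 genes in the same direction and 135 to 219 in opposite ones. The thalamic list had a median of 2.00 in sham and -1.59 after SE.

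Of the genes with the same direction in both, the ranking named 8. Serpina3n was among them, at a log2 fold change of 1.32 after SE and 1.26 in sham. Cnn1, the smooth muscle protein calponin, was at 2.00 and 1.38, but its level in sham was low, at 0.459 to 0.753 CPM in sham-cKO. Adam12, a membrane metalloprotease, was at 1.26 and 0.35, and Dpysl3, a protein of axon growth, at 0.74 and 0.17. Npas3, a transcription factor of progenitors and astrocytes, was at 0.44 and 0.41. Xlr3a, an X-linked gene, was at 1.06 and 1.60, and Pik3ap1, an adaptor of myeloid cells, at 0.68 and 0.60. Car11, a carbonic anhydrase-related protein of neurons, was lower in both, at -0.95 and -0.22. Adjusted p for these 8 was at least 0.236 after SE in edgeR.

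**Figure D5:**
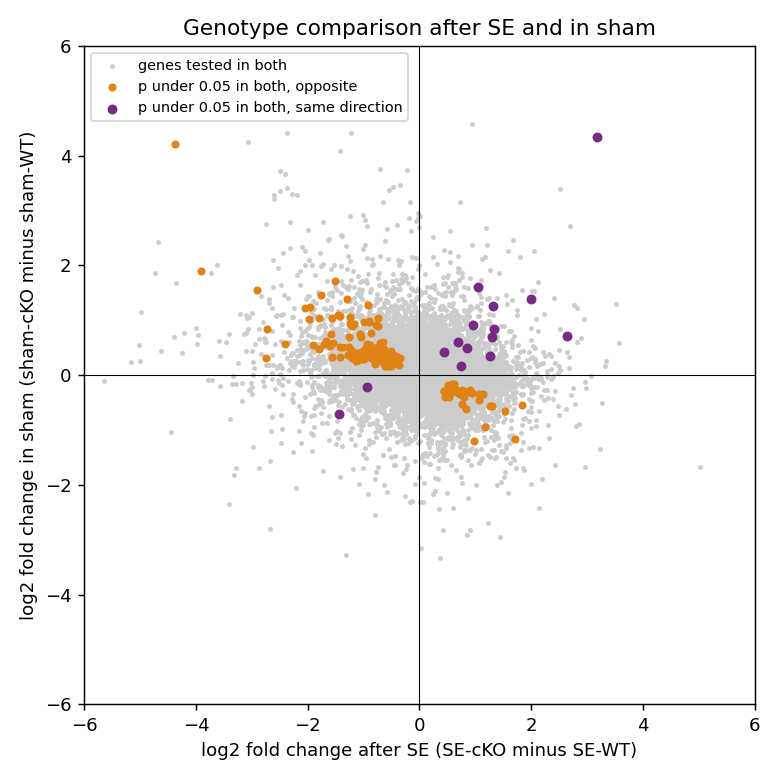
Log2 fold change between genotypes after SE (horizontal) and in sham (vertical) for genes tested in both, with 27 genes outside the axes. The 163 genes under an unadjusted p of 0.05 in both with opposite directions are in orange and the 15 with the same direction in purple, which lie mostly at higher levels in cKO.

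Whether the genotype difference itself changed with SE was tested as an interaction over all 13 libraries, and 36 of 22596 genes (0.159%) were under the adjusted threshold of edgeR. Among the 15 higher genes 6 passed, and among the 15 lower genes 7. Those 13 were chosen on the SE libraries that this test also uses. Xist-high libraries were uneven between the genotypes in opposite ways in sham and after SE, and the part of sex in the interaction was not tested. Kcnk9 was at 0.33 in sham and -1.42 after SE in the separate fits. Its interaction in the fit of all 13 libraries was -1.69 with a standard error of 0.22 and an adjusted p of 0.0418. For Col4a6, -0.32 in sham, the interaction was 2.04 with a standard error of 0.28 and the same adjusted p. With each of the 13 libraries left out in turn, the number passing ran from 0 to 177, and it was 0 without any of 7 of the libraries, all 3 sham-WT libraries included.

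Genes near the deleted locus were counted last. Of 327 genes tested within 10 Mb of Lin28a on chromosome 4, 17 (5.2%) were higher and 13 (3.98%) lower after SE at an unadjusted p under 0.05, close to the 5.42% and 4.27% of all genes. In sham, of 313 tested, 6 (1.83%) were higher and 9 (2.75%) lower, against 3.81% and 1.73% of all genes. No gene of this window was under 0.05 in the same direction in both comparisons.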

How the data were processed

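RNA from 13 hippocampal samples (3 and 4 sham libraries of WT and cKO mice, 3 and 3 SE libraries, grouped by the labels) had been sequenced from stranded total-RNA libraries. Per the labels and methods, the authors converted reads with bcl2fastq 2.20.0, used Trimmomatic for trimming, HISAT2 2.1.0 for alignment (mm10) and StringTie 2.1.3b for gene abundance. The strand setting of the counting is not given in the sources used here, so overlapping antisense genes cannot be told apart. The table of 45777 genes that the authors deposited holds a count, an FPKM and a TPM per library. The deposited read counts are whole numbers and were used as counts. Neither deposited FPKM nor deposited TPM entered any result.

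The low-count filter was filterByExpr (counts of 10, total of 15) and the scaling TMM. The test was robust glmQLFit and glmQLFTest of edgeR 4.0.16 (R 4.3.3) for SE-cKO against SE-WT with these 6 libraries. The paper's text names no test for differential expression. Benjamini-Hochberg adjustment ran over every gene tested, with a threshold of 0.05. Unadjusted p values are from the same test. Alternatives left out each library in turn, used DESeq2 1.42.0, limma 3.58.1 (voom with quality weights), RLE size factors, no filter, all 13 libraries in 1 fit, a replicate block, or Xist level, title style, striatal or thalamic levels as terms. CPM is scaled by TMM factors. The method was tested on simulated data. Labels name separate mice by sample, but no culture or litter, so p values measure the spread between these samples. Counting limits (3 counts for a value of 0) cover counting error only. Positions and sequences came from RefSeq GRCm38.p6, where 45679 gene IDs (99.8%) matched. Replicates of a group differed by far more than counting noise.

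Named genes were Lin28a, Lin28b and 7 study markers, the 15 higher and 15 lower genes defined in the text, from each list at most 4 members, those of smallest p, the 6 per direction that moved most without SE-WT replicate 2, and up to 8 with the same direction in sham and SE. Predicted genes and neurotransmitter receptors were left out, and some genes that the rule names are not reported here. The comparison, gene lists and named genes were chosen with earlier results of these data known.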

Additional observations from a re-analysis of the deposited data

Results flagged for a closer look

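Genes named in the report whose genotype difference after SE differed from that in sham, as an interaction over all 13 libraries with an adjusted p under 0.05 in edgeR, were 18 in number. All but Gfap were chosen by their p in the SE comparison, whose libraries this test also uses, so their number cannot be set against the share of all genes. Each value is the log2 fold change after SE minus that in sham, both within the fit of all 13 libraries. It can differ slightly from the difference of the separate fits. Among matrix and vascular genes, the interaction was 2.04 for Col4a6, 1.35 for Col4a5, 2.29 for Col12a1, 2.11 for Serpinf1, 1.16 for Pxdc1 and 3.83 for Tagln. Among glial and stress genes it was 1.05 for Gfap, 0.93 for Itgam, 1.14 for Mt1, 1.22 for Hspb8 and 1.11 for Tpm4. Among neuronal genes it was -1.64 for L1cam, -1.68 for Shisa9, -1.69 for Kcnk9, -1.74 for Esrrg, -1.82 for Dnm3, -1.42 for Dzank1 and -1.31 for Mgat4c. With each library left out in turn, which was added after the data were seen, Kcnk9 passed in 6 of 13 fits and Gfap in 1 of 13, and the direction stayed the same in all 13 for both. Over all genes the count was 36 of 22596 (0.159%) with all libraries, 0 without SE-cKO replicate 2 and 177 without SE-cKO replicate 3. The part of sex, which by Xist was uneven in opposite ways in sham and after SE, was not tested.

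In the 4 sham-cKO libraries, 1 library stood apart from the other 3 for 13 of the 129 named genes. The measure was the gap between it and its nearest neighbour relative to the range. Chance alone flags about 1 in 20 such groups, and genes that vary together are flagged together. Sham-cKO replicate 2, the library high in thalamic genes, was the one for 9 of the 13. It had 704 CPM of Rora against 87.0 to 139 CPM, 84.98 CPM of Cntn4 against 35.1 to 39.8 CPM, 152 CPM of L1cam against 87.4 to 96.6 CPM, and 247 CPM of Rims2 against 153.04 to 166 CPM. It also had 123 CPM of Robo1 against 89.4 to 93.4 CPM, 13.3 CPM of Smim32 against 2.22 to 2.46 CPM, 12.4 CPM of Lin28b against 3.99 to 5.16 CPM, 54.8 CPM of Tnc against 22.6 to 27.2 CPM, and 1.55 CPM of Gal against at most 0.232 CPM. Sham-cKO replicate 4 had 24.2 CPM of Serpina3n against 70.9 to 78.0 CPM and 1.52 CPM of Itgal, an integrin of leukocytes, against 0.155 to 0.328 CPM. Sham-cKO replicate 3 had 72.2 CPM of Sdc4, a syndecan proteoglycan, against 83.3 to 84.9 CPM, and sham-cKO replicate 1 had 0.316 CPM of Sele against 0 CPM in the others. The part of thalamic material in these values was not tested.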

How the results depend on the processing

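With 3 libraries a group no single gene passed in edgeR, sex and title style were uneven between the groups or libraries, and single libraries held striatal or thalamic genes, which limits every gene named. Most named genes were chosen by their p in the main fit, and the alternatives reuse its libraries, so a shared direction was likely beforehand. The same share over all genes tested was not counted. The 129 named genes gave 2193 log2 fold changes over 17 alternatives, 2189 of them in the direction of the report. The 4 others were Avp without SE-WT replicate 2 (1.09, in a range from -5.58 to 1.09 over libraries left out), with the striatal level as a covariate (2.34) and with striatal and thalamic levels in the fit of all 13 libraries (2.79), and Slc5a7 in the last (0.64). An adjusted p under 0.05 was reached in 142, 90 of them in DESeq2 and 46 in the fit of all 13 libraries. The causes of the differences below were not tested.

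Genes called higher and lower numbered 0 and 0 in the report, 307 and 228 in DESeq2, 107 and 55 with all 13 libraries in 1 fit, and 4 and 22 with striatal and thalamic levels as well. Over libraries left out they ran from 0 to 2 and from 0 to 1, with calls only without SE-WT replicate 1. Genes at an unadjusted p under 0.05 ran over libraries left out from 703 to 1263 higher and from 510 to 1032 lower, lowest without SE-cKO replicate 2. They numbered 1772 higher and 1449 lower with all 13 libraries, 545 higher and 790 lower with the striatal level as a covariate, and 1032 higher and 1416 lower with both levels. With the Xist level as a covariate 0 genes were called, and 1082 were higher and 981 lower at an unadjusted p under 0.05. Genes at least 2-fold apart without overlap ran from 753 to 1147 higher and from 575 to 858 lower over libraries left out, numbered 1467 and 1204 with both replicate 3 libraries left out, whose titles follow another style, and 593 were lower without the low-count filter. Fewer libraries make non-overlap easier to reach.

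Same-numbered SE-WT and SE-cKO libraries had correlations of deviations of -0.03, 0.12 and 0.06. Not every library correlated best with its own number, but so few pairs cannot show whether the numbers pair the samples. SE-WT replicate 3 and SE-cKO replicate 3 had the other title style and also the highest shares of mitochondrial ribosomal RNA, 4.83% and 3.92%. With a replicate block 0 genes were called, and 1196 were higher and 969 lower at an unadjusted p under 0.05.

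Some list medians moved by more than the spread between replicates. Over libraries left out, activated microglia ran from 0.61 to 0.96, infiltrating leukocytes from 0.75 to 2.72, striatal neurons from -3.67 to -0.47, thalamic neurons from -1.997 to 0.24, oligodendrocyte precursors from 0.16 to 0.62, actin, annexins and S100 from 0.56 to 0.86, neuropeptides and growth factors from -0.34 to 0.50, potassium channels from -0.74 to -0.41, axon guidance from -0.32 to -0.030, and the 5 sex-linked genes tested, -0.94 in the report, from -7.21 to -0.36. With the striatal level as a covariate, granule cells were at 0.22, interneurons at -0.33, striatal neurons at -0.10, matrix remodelling at 0.41, actin, annexins and S100 at 0.55, synaptic vesicle release at -0.90, potassium channels at -0.77 and axon guidance at -0.38. With striatal and thalamic levels in the fit of all 13 libraries, leukocytes were at 0.80, progenitors at 0.10, striatal neurons at 0.33, thalamic neurons at 0.32, actin, annexins and S100 at 0.52, potassium channels at -0.69 and oxidative stress at 0.42. With both libraries of the other title style left out, progenitors were at 0.077, CA pyramidal cells at 0.090, thalamic neurons at 0.027, myelin at 0.37, neuropeptides at -0.19, axon guidance at -0.031 and oxidative stress at 0.43. With limma voom, CA pyramidal cells were at 0.11 and striatal neurons at -1.33. Medians of reactive astrocytes, collagens, matrix remodelling, cell division and the synaptic and channel lists kept their sign in all 17.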
